A study of Mus musculus with 18 samples.

Results

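The genes described here are 10 genes of the NF-kB system: the 5 DNA-binding subunits Nfkb1, Nfkb2, Rela, Relb and Rel, the inhibitors Nfkbia, Nfkbie and Tnfaip3, and the adhesion molecules Icam1 and Vcam1. They are 10 of the 55335 genes in a count table of 12 bulk RNA libraries from mouse liver tumours, and all 10 were among the 17013 genes with enough counts to be tested. They were chosen by name, with earlier results of the same libraries in view. In those results Nfkb2, Relb, Tnfaip3 and Icam1 were among the few genes called higher after Prom1 depletion in DEN+CCl4 tumours. The sources used here do not say which comparison guided the choice, and this one was taken to be it. It is called below the comparison that chose the genes. That comparison, and the difference between the models that contains it, are therefore given for these genes as a description without a test, and nothing is rested on them. The N-Ras+AKT results may have been in view as well, so the tests in that model are not independent of the choice either.

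The libraries came from hepatocellular carcinomas of 2 mouse models, each with 3 control libraries and 3 libraries labelled Prom1 depletion. The DEN+CCl4 model starts with N-nitrosodiethylamine (DEN), a carcinogen, given at 14 days of age in a dose of 1 mg/kg. Carbon tetrachloride (CCl4, 0.2 ml/kg), a liver toxin, follows from 8 weeks of age and is kept up for 12 to 16 weeks. For the N-Ras+AKT model, hepatocytes took up DNA after hydrodynamic tail vein injection of 20 µg each of plasmids for NRasV12, an activated Ras, and for a membrane-bound AKT, which 1.6 µg of a Sleeping Beauty plasmid helped to insert into the genome. The age of those mice is not given in the sources used here. The depletion mice carried Prom1C-L/+;Rosa26DTA/+, in which the Prom1 promoter drives a Cre recombinase that tamoxifen (4 mg doses) activates and that switches on diphtheria toxin A, so that cells making Prom1 die. All 12 libraries carry that genotype in the strain label, while the design text gives the control littermates as Prom1+/+;Rosa26DTA/+ and also names a vehicle. The labels thus leave unclear which of knock-in and tamoxifen the controls went without. Rosa26DTA/+ is common to all groups. The last dose preceded collection by 16 days in DEN+CCl4 and by 6 days in N-Ras+AKT, so the interval differs together with the model. The labels do not say whether each library is a separate animal, so p-values measure the spread between these libraries.

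NF-kB is a family of dimeric transcription factors that are held in the cytoplasm by IkB proteins until a signal from receptors such as those for TNF or interleukin 1 makes the IkB kinase complex mark the IkB for destruction. In the canonical branch the dimers released are mostly of RelA with the product of Nfkb1. In the non-canonical branch the kinase NIK, the product of Map3k14, leads to processing of the Nfkb2 precursor, which then acts with RelB. Several members are themselves NF-kB targets: Nfkbia, Nfkbie and Tnfaip3 close negative feedback loops, Nfkb2 and Relb are induced by the canonical branch, and Icam1 and Vcam1 are adhesion molecules that NF-kB induces and that leukocytes bind on endothelium. In liver the pathway is known for the response of hepatocytes, Kupffer cells and endothelium to injury and inflammation.

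The letters that NF-kB dimers read are the kappaB sites, and the promoters of 4 members that were searched for them are printed here because these genes, a subunit and the 3 inhibitors, give the contrasting patterns described further on. Promoters from RefSeq (GRCm38.p6), each of 250 bases before to 50 bases after a gene start, were on hand for 7 of the 10 members, 10 promoters in all, with none for Nfkb1, Relb and Vcam1. The sequences run 5′ to 3′ on the strand of the gene, and capitals mark matches to the 10-base kappaB consensus on either strand. They are the upstream start of Nfkb2 (chr19:46304487-46304786, plus strand), Nfkbie (chr17:45555450-45555749, plus strand), the upstream start of Tnfaip3 (chr10:19015361-19015660, minus strand) and Nfkbia (chr12:55492598-55492897, minus strand).
Nfkb2: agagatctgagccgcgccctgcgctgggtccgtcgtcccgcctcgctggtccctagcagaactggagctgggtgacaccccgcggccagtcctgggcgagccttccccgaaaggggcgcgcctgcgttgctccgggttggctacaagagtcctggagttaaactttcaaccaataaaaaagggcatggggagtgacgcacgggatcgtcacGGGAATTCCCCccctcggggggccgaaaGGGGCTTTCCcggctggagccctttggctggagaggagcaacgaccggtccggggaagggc
Nfkbie: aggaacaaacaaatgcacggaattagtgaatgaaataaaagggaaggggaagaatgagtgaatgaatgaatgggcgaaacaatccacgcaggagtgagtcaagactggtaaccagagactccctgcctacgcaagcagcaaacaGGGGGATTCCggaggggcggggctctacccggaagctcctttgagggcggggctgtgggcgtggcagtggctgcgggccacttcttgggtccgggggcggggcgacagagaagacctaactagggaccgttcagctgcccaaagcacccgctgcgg
Tnfaip3: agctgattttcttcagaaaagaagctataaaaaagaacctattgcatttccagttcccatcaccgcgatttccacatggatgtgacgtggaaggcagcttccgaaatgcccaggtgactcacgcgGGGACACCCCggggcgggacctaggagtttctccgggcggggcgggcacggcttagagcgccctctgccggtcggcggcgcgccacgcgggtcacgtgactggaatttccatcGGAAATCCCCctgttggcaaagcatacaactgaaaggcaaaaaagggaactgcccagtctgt
Nfkbia: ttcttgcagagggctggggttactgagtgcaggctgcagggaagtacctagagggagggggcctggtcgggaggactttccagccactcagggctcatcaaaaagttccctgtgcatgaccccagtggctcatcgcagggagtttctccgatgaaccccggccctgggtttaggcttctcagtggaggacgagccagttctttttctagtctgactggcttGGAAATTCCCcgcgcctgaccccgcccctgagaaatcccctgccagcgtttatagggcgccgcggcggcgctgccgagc

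A match to the kappaB consensus was present in 7 of the 10 promoters, those of Nfkb2, Rel, Nfkbia, Nfkbie and Tnfaip3, and in 4.51% of all 32851 mouse promoters of the same length. In the Nfkb2 promoter printed above, 3 matches lay close to the start, at 39, 38 and 11 bases before it, the first 2 of them overlapping. The Tnfaip3 promoter had matches at 125 and 12 bases before the start, Nfkbie had 1 at 106 bases and Nfkbia had 1 at 29 bases. The promoters of Rela and Icam1 and the downstream start of Tnfaip3 held no match in this window. The consensus opens with 3 G, so similar letters that open otherwise are not counted, and no match does not mean that no site is present. A looser pattern on either strand of 3 G, 5 bases of any kind and 2 C, which includes every match of the consensus, was present in all 10 promoters but also in 50.8% of all promoters. The windows of 2 Nfkb2 starts overlap and share a match. A match is a description of the letters and not of binding.

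**Figure D1:**
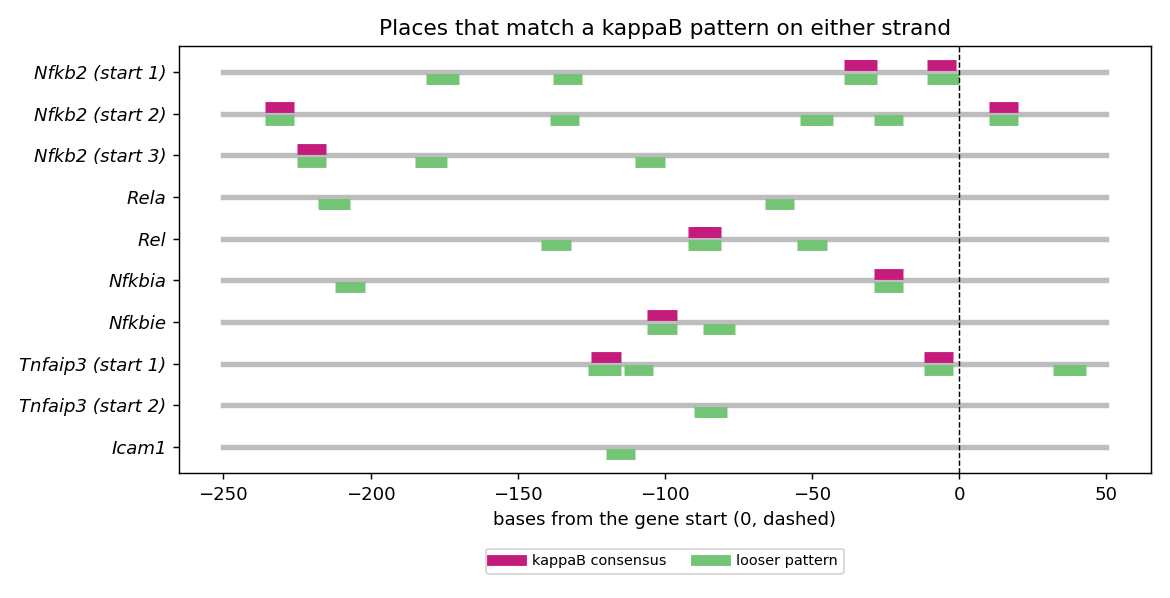
Places matching the kappaB consensus (upper marks) or the looser pattern (lower marks) on either strand in the 10 RefSeq promoters of 7 members, by distance in bases from the gene start. Consensus matches are present in 7 of the 10 promoters, and Rela, Icam1 and the second start of Tnfaip3 hold only looser ones.

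Library totals ran from 31306617 to 48055812 counts. Levels are CPM, read counts relative to the library total, scaled with TMM factors that correct for differences in composition. The tests are edgeR's quasi-likelihood tests over all 17013 genes in 1 fit of the 12 libraries, with adjusted p by Benjamini-Hochberg and a threshold of 0.05. Prom1 itself lay between 45.4 and 78.3 CPM in the 6 controls, between 17.4 and 40.0 CPM after depletion in DEN+CCl4 and between 2.17 and 16.5 CPM after depletion in N-Ras+AKT (log2 −1.0, SE 0.57, adjusted p = 0.381 and −2.90, SE 0.61, adjusted p = 0.00953). Hepatocyte markers summed to 68300 to 245000 CPM over the 12 libraries, with none of the 9 matched markers at 0. DEN+CCl4 depletion 6 and N-Ras+AKT depletion 17 stood apart from the other libraries of their groups in earlier results of these data and had the lowest Prom1 of their groups. Where a depletion call in N-Ras+AKT of a gene named here ended without depletion 17, the value without it is given.

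Among the subunits, the transcripts of the non-canonical pair Nfkb2 and Relb were high in DEN+CCl4 depletion and N-Ras+AKT control tumours and low in DEN+CCl4 control and N-Ras+AKT depletion tumours, while Rela stayed within a narrow range in all 4 groups. Nfkb2 (ENSMUSG00000025225.15, chromosome 19, 46304320 to 46312385, plus strand, GRCm38) codes for the precursor that is processed in the non-canonical branch. It had 10.50, 9.072 and 13.16 CPM in DEN+CCl4 controls 7, 8 and 13, and 21.52, 18.48 and 20.45 CPM in depletion libraries 6, 9 and 10. In N-Ras+AKT it had 20.03, 16.97 and 16.86 CPM in controls 3, 10 and 15, and 11.33, 9.248 and 8.528 CPM in depletion libraries 6, 11 and 17. The groups did not overlap in either model, and they lay in opposite order. Nfkb2 was 1.85-fold higher after depletion in DEN+CCl4 (log2 0.88, SE 0.15) and fell by 0.89 on the log2 scale in N-Ras+AKT (SE 0.15, adjusted p = 0.00439). Its difference of effects, N-Ras+AKT minus DEN+CCl4, was −1.77 on the log2 scale (SE 0.22).

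Relb (ENSMUSG00000002983.17, chromosome 7, 19606217 to 19629438, minus strand) codes for the subunit that pairs with the processed Nfkb2 product. It had 3.240, 2.289 and 3.617 CPM in DEN+CCl4 controls 7, 8 and 13, and 9.993, 8.278 and 7.372 CPM in depletion libraries 6, 9 and 10. The N-Ras+AKT controls 3, 10 and 15 had 11.20, 7.105 and 7.835 CPM, and 4.732, 3.303 and 2.504 CPM in depletion libraries 6, 11 and 17. Every depletion library lay above every control in the first model and below every control in the other. Relb was 2.80-fold higher after depletion in DEN+CCl4 (log2 1.49, SE 0.27) and fell by 1.31 on the log2 scale in N-Ras+AKT (SE 0.26, adjusted p = 0.00665). The difference of effects was −2.80 (SE 0.38).

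Rela (ENSMUSG00000024927.8, chromosome 19, 5637483 to 5648130, plus strand), the main activating subunit of the canonical branch, had 41.3 ± 4.31 CPM in DEN+CCl4 controls, 42.0 ± 1.51 CPM after depletion there, 39.0 ± 3.37 CPM in N-Ras+AKT controls and 41.2 ± 2.40 CPM after depletion there (SD, n = 3). Its 12 libraries ran from 35.12 to 45.97 CPM, and the groups overlapped in both models. The log2 difference was 0.08 after depletion in N-Ras+AKT (95% interval −0.14 to 0.30, adjusted p = 0.613) and the difference of effects was 0.05 (95% interval −0.26 to 0.37). Its sign was not stable to leaving out single libraries.

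Nfkb1 (ENSMUSG00000028163.17, chromosome 3, 135584655 to 135691547, minus strand), the canonical partner of RelA, had 32.25, 34.88 and 38.83 CPM in DEN+CCl4 controls 7, 8 and 13 and 38.23, 41.36 and 47.78 CPM in depletion libraries 6, 9 and 10, which overlap. In N-Ras+AKT it had 33.99, 28.93 and 35.70 CPM in controls 3, 10 and 15 and 28.01, 22.64 and 23.44 CPM in depletion libraries 6, 11 and 17. Here all depletion libraries lay below all controls, the nearest pair at 28.01 and 28.93 CPM. Nfkb1 fell by 0.41 on the log2 scale in N-Ras+AKT (SE 0.13, adjusted p = 0.0344), and its difference of effects was −0.68 (SE 0.18). The N-Ras+AKT call was lost when control 3 or 15 was left out (adjusted p = 0.096 and 0.109), and likewise for depletion 11 or 17 (0.0994 and 0.119).

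Rel (ENSMUSG00000020275.9, chromosome 11, 23736847 to 23770970, minus strand) codes for c-Rel, the subunit best known from lymphocytes and myeloid cells. It had 17.30, 11.66 and 19.59 CPM in DEN+CCl4 controls 7, 8 and 13 and 17.41, 18.34 and 22.64 CPM in depletion libraries 6, 9 and 10, which overlap. The N-Ras+AKT controls 3, 10 and 15 had 8.234, 9.000 and 10.82 CPM, and 6.858, 6.584 and 6.136 CPM in depletion libraries 6, 11 and 17. The 6 N-Ras+AKT libraries all lay below the 6 of DEN+CCl4, and within that model the depletion libraries lay below the controls. The log2 difference of −0.52 in N-Ras+AKT (SE 0.18) missed the threshold (adjusted p = 0.0609), though its unadjusted 95% interval (−0.92 to −0.12) lay below 0. The difference of effects was −0.79 (SE 0.26).

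**Figure D2:**
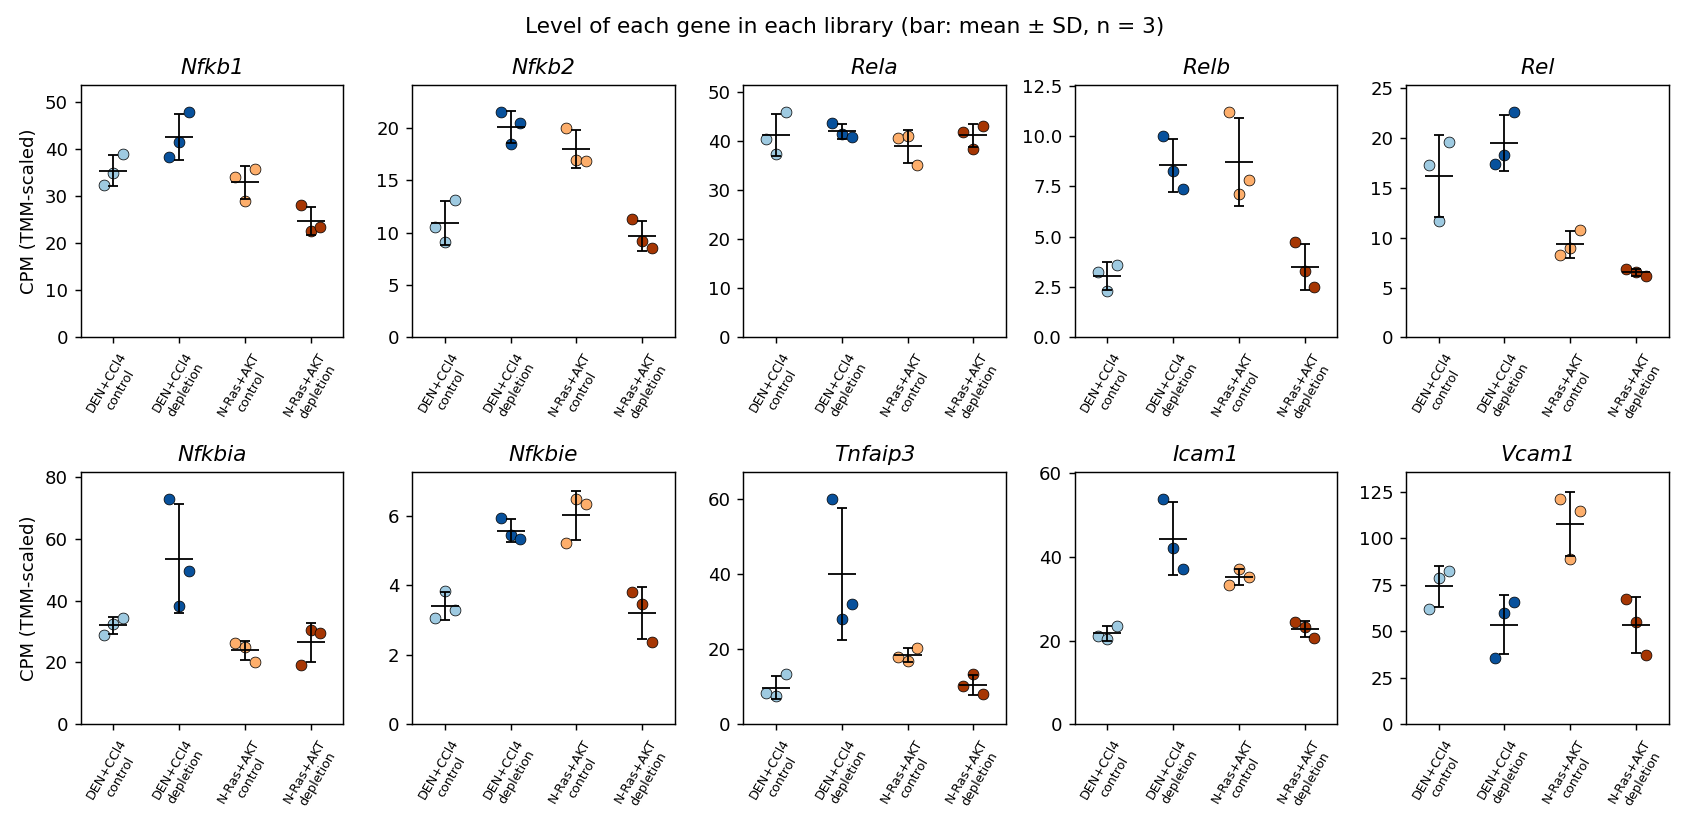
TMM-scaled CPM of each of the 10 genes in each of the 12 libraries; points are libraries, bars are group means ± SD (n = 3), and every axis starts at 0. Nfkb2, Relb, Nfkbie, Tnfaip3 and Icam1 are higher after depletion in DEN+CCl4 and lower after it in N-Ras+AKT with no overlap of the groups, while Rela runs from 35.12 to 45.97 CPM over all libraries.

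The 3 inhibitors did not move as a block: Nfkbie and Tnfaip3 followed Nfkb2 and Relb, while Nfkbia was higher in DEN+CCl4 depletion tumours and overlapped between the groups in N-Ras+AKT. Nfkbie (ENSMUSG00000023947.8, chromosome 17, 45555703 to 45563169, plus strand) codes for IkB epsilon, an IkB whose gene is induced by NF-kB. It had 3.062, 3.833 and 3.298 CPM in DEN+CCl4 controls 7, 8 and 13 and 5.954, 5.461 and 5.336 CPM in depletion libraries 6, 9 and 10. In N-Ras+AKT it had 5.214, 6.497 and 6.341 CPM in controls 3, 10 and 15 and 3.800, 3.457 and 2.369 CPM in depletion libraries 6, 11 and 17. The groups were separate in both models, in opposite order. Nfkbie was 1.64-fold higher after depletion in DEN+CCl4 (log2 0.71, SE 0.19) and fell by 0.91 on the log2 scale in N-Ras+AKT (SE 0.19, adjusted p = 0.00829), and the difference of effects was −1.62 (SE 0.27).

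Tnfaip3 (ENSMUSG00000019850.11, chromosome 10, 19000910 to 19015657, minus strand) codes for A20, a ubiquitin-editing enzyme that ends signalling from the TNF receptor. It had 8.437, 7.555 and 13.25 CPM in DEN+CCl4 controls 7, 8 and 13 and 60.10, 27.91 and 31.92 CPM in depletion libraries 6, 9 and 10. Values of N-Ras+AKT were 17.84, 16.90 and 20.44 CPM in controls 3, 10 and 15 and 10.06, 13.28 and 7.941 CPM in depletion libraries 6, 11 and 17. The groups did not overlap in either model, and DEN+CCl4 depletion 6 was highest by far. Tnfaip3 was 4.10-fold higher after depletion in DEN+CCl4 (log2 2.03, SE 0.31, or 1.62 without depletion 6). Its log2 difference of −0.82 in N-Ras+AKT (SE 0.30) did not pass (adjusted p = 0.0748). It did not pass in 11 of 13 alternatives either, among them all 6 with a library left out (0.0537 to 0.244). It passed with DESeq2 (0.0351) and in a fit of the 6 N-Ras+AKT libraries alone (0.0358). The difference of effects was −2.85 (SE 0.44), or −2.43 without DEN+CCl4 depletion 6.

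Nfkbia (ENSMUSG00000021025.8, chromosome 12, 55489410 to 55492647, minus strand) codes for IkB alpha, the fast feedback inhibitor of the canonical branch. It had 28.94, 32.54 and 34.37 CPM in DEN+CCl4 controls 7, 8 and 13 and 73.09, 38.46 and 49.69 CPM in depletion libraries 6, 9 and 10. Values of N-Ras+AKT were 26.28, 25.05 and 20.27 CPM in controls 3, 10 and 15 and 19.12, 30.65 and 29.62 CPM in depletion libraries 6, 11 and 17. Depletion libraries lay above controls in DEN+CCl4 (log2 0.75, SE 0.23, or 0.47 without depletion 6) and overlapped with them in N-Ras+AKT (log2 0.15, 95% interval −0.35 to 0.65, adjusted p = 0.681). The difference of effects was −0.60 (SE 0.32, 95% interval −1.31 to 0.11).

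The 2 adhesion molecules differed from each other. Icam1 (ENSMUSG00000037405.8, chromosome 9, 21015985 to 21028817, plus strand), which binds leukocyte integrins of the beta-2 family, followed Nfkb2 and Relb, while Vcam1, which binds the integrin of Itga4 and Itgb1, was lower after depletion in N-Ras+AKT with values in the same direction in DEN+CCl4. Icam1 had 21.08, 20.35 and 23.61 CPM in DEN+CCl4 controls 7, 8 and 13 and 53.94, 42.22 and 37.04 CPM in depletion libraries 6, 9 and 10. In N-Ras+AKT it had 33.36, 37.18 and 35.24 CPM in controls 3, 10 and 15 and 24.42, 23.16 and 20.71 CPM in depletion libraries 6, 11 and 17. Again the groups were separate in both models and in opposite order. Icam1 was 2.05-fold higher after depletion in DEN+CCl4 (log2 1.03, SE 0.13) and fell by 0.63 on the log2 scale in N-Ras+AKT (SE 0.13, adjusted p = 0.00775). Its difference of effects was −1.66 (SE 0.19).

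Vcam1 (ENSMUSG00000027962.14, chromosome 3, 116109949 to 116129688, minus strand) had 61.80, 78.64 and 82.60 CPM in DEN+CCl4 controls 7, 8 and 13 and 35.59, 59.70 and 65.54 CPM in depletion libraries 6, 9 and 10. In N-Ras+AKT it had 121.4, 88.83 and 115.0 CPM in controls 3, 10 and 15 and 67.51, 54.94 and 37.52 CPM in depletion libraries 6, 11 and 17. The groups overlapped in DEN+CCl4 and were separate in N-Ras+AKT, and the lowest library of each model was the depletion library that stands apart. Vcam1 fell by 1.02 on the log2 scale in N-Ras+AKT (SE 0.25, adjusted p = 0.0157), a call that ended without depletion 17 (log2 −0.83, adjusted p = 0.0552) or control 3 (−0.93, 0.0561). In DEN+CCl4 the log2 difference was −0.47 (SE 0.25), and the difference of effects was −0.55 (95% interval −1.33 to 0.23). Annotated genes overlap exons of 3 members on the opposite strand, Psd and AC114539.1 at Nfkb2, Gm47079 at Icam1 and Gm43109 at Vcam1, and since the strand setting of the counting is not given, their reads cannot be told apart from the members'. In bulk tumour RNA, fewer cells of a type and less RNA per cell cannot be told apart either.

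Set side by side, 6 of the 10 genes fell past the test after depletion in N-Ras+AKT (Nfkb1, Nfkb2, Relb, Nfkbie, Icam1 and Vcam1) and none rose, against 10.8% of all genes called lower, 12.8% called higher and 23.7% in all. At an unadjusted p under 0.05 there were 8 of the 10, against 37.3% of all genes. The median log2 fold change of the 10 was −0.72, and that of all genes tested −0.02. All depletion libraries lay below all controls for 8 of the 10, against 21.5% of all genes in that direction, 21.4% in the other and 43% in all. Of the 6 calls, those of Nfkb2, Relb, Nfkbie and Icam1 were kept with each of the 6 libraries left out in turn. Without depletion 17, or without control 3, 4 of the 10 passed. In DEN+CCl4, the comparison that chose the genes, 4 of the 10 were called higher and none lower, against 0.112% of all genes called higher, 0.259% lower and 0.37% in all. The groups did not overlap, with depletion above, for 6 of the 10, against 11.5% of all genes in that direction, 16% in the other and 27.5% in all. The median was 0.73, with −0.01 over all genes. No reading is drawn from these counts.

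The difference between the models contains the DEN+CCl4 values that chose the genes, so its counts are given with those of all genes as a description and nothing is read from them. Past the threshold of 0.05 were 6 of the 10 genes, all with a lower value in N-Ras+AKT (Nfkb1, Nfkb2, Relb, Nfkbie, Tnfaip3 and Icam1), beside 3.6% of all genes in that direction, 7.98% in the other and 11.6% in all. Of these calls, that of Nfkb1 ended in 8 of 12 cases with a library left out (adjusted p up to 0.0876), and the others held in all cases. The median difference of effects was −1.21 on the log2 scale, and −0.03 over all genes tested. By sign alone, 7 of the 10 were higher in DEN+CCl4 and lower in N-Ras+AKT after depletion, beside 25.7% of all genes. With both groups separate and in opposite order, there were 5 (Nfkb2, Relb, Nfkbie, Tnfaip3 and Icam1), beside 2.05% of all genes. Nfkb2, Relb and Icam1, whose DEN+CCl4 calls are among those that chose the genes, fell in N-Ras+AKT, and they make up 3 of the 5 genes, or 0.0294% of all tested, past the threshold in both models in these directions. The 2 depletion comparisons share no library. The N-Ras+AKT results may also have been in view when the genes were chosen, so the N-Ras+AKT calls of these 3 genes are not an independent test of this pattern.

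**Figure D3:**
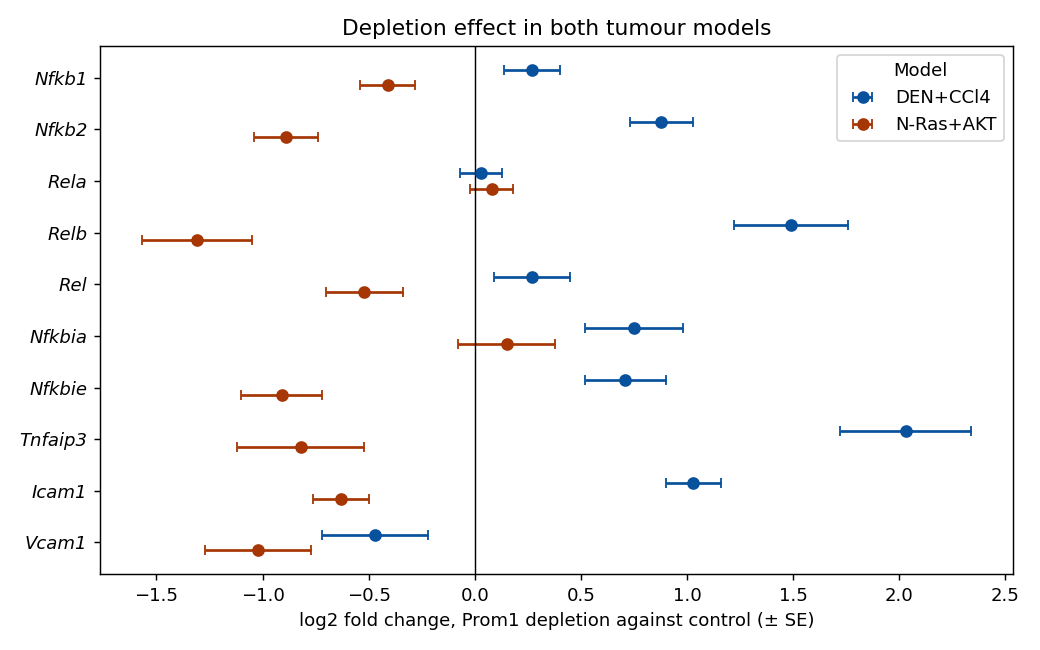
Log2 fold change of each gene after Prom1 depletion against control in both models, with bars of ± SE from 1 fit of 12 libraries. Values lie on opposite sides of 0 for 7 of the 10 genes, both are near 0 for Rela, and both are below 0 for Vcam1.

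**Figure D4:**
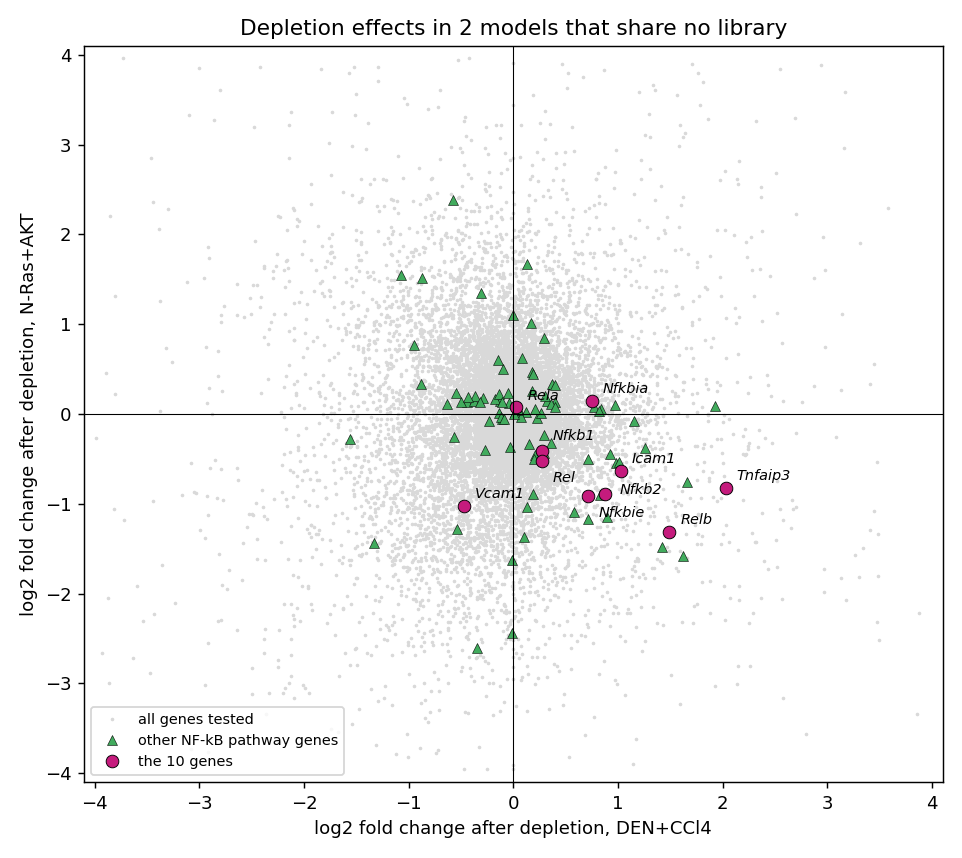
Log2 fold change after depletion in DEN+CCl4 (horizontal) and in N-Ras+AKT (vertical) for the 17013 genes tested, other genes of the pathway and the 10 genes; 102 genes at or beyond 4 on either axis are not drawn. The 10 genes have medians of 0.73 and −0.72, and all genes together −0.01 and −0.02.

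The control tumours of the 2 models also differed in members. Nfkb2, Relb, Nfkbie, Tnfaip3 and Icam1 were higher in N-Ras+AKT controls than in DEN+CCl4 controls, by 0.72, 1.52, 0.82, 0.91 and 0.70 on the log2 scale (SE 0.15, 0.27, 0.19, 0.31 and 0.13; adjusted p = 0.00326, 0.00107, 0.00556, 0.0347 and 0.00165). Rel was lower by this comparison (log2 −0.79, SE 0.18, adjusted p = 0.0051). That makes 5 of 10 higher and 1 lower, against 20.8% and 19.8% of all genes, and the count of calls in all, 6 of 10, is read against the 40.6% of all genes that passed (49.4% at an unadjusted p under 0.05, as for 6 of the 10). The groups did not overlap for 8 of the 10, 6 higher and 2 lower in N-Ras+AKT, against 54.5% of all genes, 28.4% higher and 26.1% lower. For Tnfaip3 the call ended without DEN+CCl4 control 7 or 8 or N-Ras+AKT control 3, 10 or 15 (adjusted p = 0.11, 0.117, 0.0682, 0.0544 and 0.092), and the other 5 were kept with each library left out. Nfkb1, Rela, Nfkbia and Vcam1 did not pass (log2 −0.10, −0.08, −0.42 and 0.54; adjusted p = 0.537, 0.542, 0.165 and 0.105). This comparison uses the control libraries of both depletion comparisons, the one that chose the genes included, so its values and theirs are not independent, and the models differ in much besides the oncogenes.

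Relative to Rela in the same library, a quantity that no scaling of libraries can move, the subunits changed their proportions. Counts per base of the longest coding transcript were compared, and another choice of length would scale all ratios of a gene alike. Relb stood at 0.0751 to 0.0983 of Rela in DEN+CCl4 controls and at 0.221 to 0.281 after depletion, while the N-Ras+AKT libraries ran from 0.212 to 0.338 without depletion and from 0.0714 to 0.139 with it. Nfkb2 stood at 0.171 to 0.202 and 0.315 to 0.353 in DEN+CCl4, and at 0.291 to 0.347 and 0.14 to 0.191 in N-Ras+AKT. For both genes the groups were separate in each model. Nfkb1 stood at 0.525 to 0.614 of Rela in DEN+CCl4 controls and overlapped with the 0.576 to 0.77 of depletion, while in N-Ras+AKT it went from 0.464 to 0.671 in controls to 0.358 to 0.44 after depletion. Rel was between 0.113 and 0.201 of Rela in all DEN+CCl4 libraries and between 0.0518 and 0.112 in all of N-Ras+AKT. A ratio shows that a pair of genes changed unequally and not that Rela was constant.

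**Figure D5:**
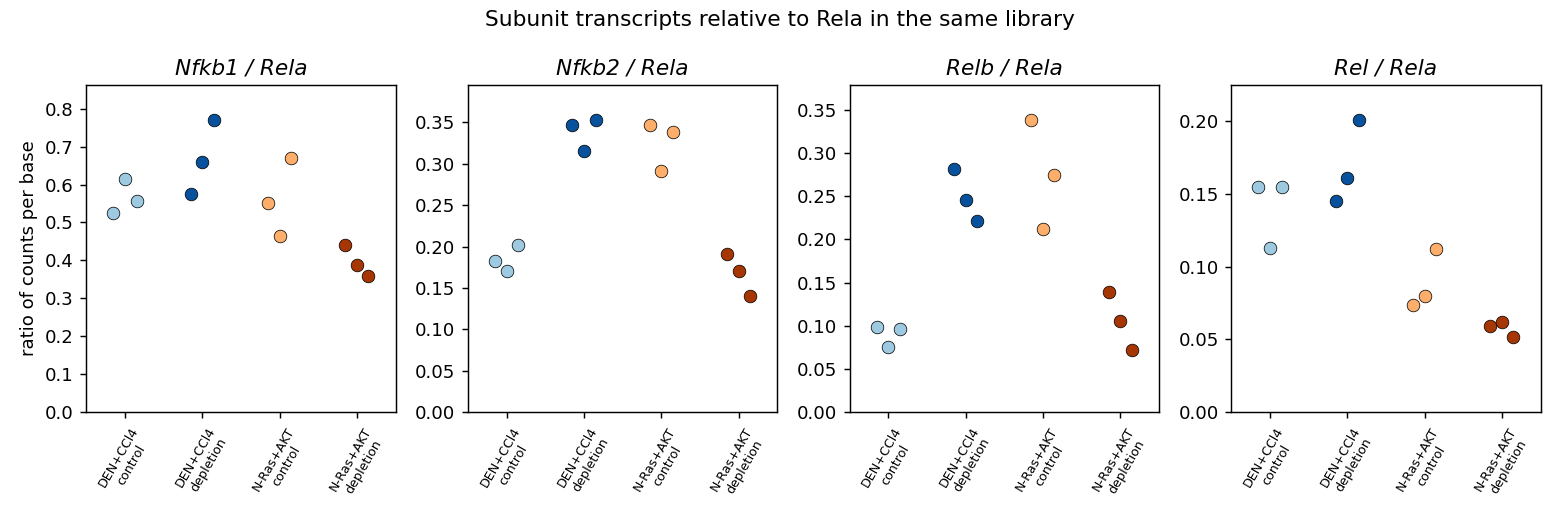
Ratio of counts per base of Nfkb1, Nfkb2, Relb and Rel to Rela within each library, in 4 groups of 3 libraries; every axis starts at 0. The ratios of Nfkb2 and Relb do not overlap between depletion and control in either model and lie in opposite order.

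On the scale of CPM per kilobase of the longest coding transcript, Vcam1, Nfkbia and Rela had the 3 highest means of the 10 in both control groups. The order between genes depends on the length used. All exons together span 8870 bases for Vcam1, 12061 for Nfkb1 and 3072 for Rela. The longest coding transcripts have 3469, 4117 and 2716 bases. Vcam1 had 21.4 ± 3.18 and 31.2 ± 4.97, Nfkbia 20.2 ± 1.75 and 15.1 ± 2.01, and Rela 15.2 ± 1.59 and 14.4 ± 1.24 CPM per kilobase in DEN+CCl4 and N-Ras+AKT controls (SD, n = 3). Vcam1 and Nfkbia in DEN+CCl4 controls differed from each other by less than their SD. In N-Ras+AKT controls Nfkbia and Rela did too, and Rela and Icam1 differed by less than the SD of Rela. The order within these pairs is not resolved. Nfkb1 and Icam1 came next in DEN+CCl4 controls at 8.58 ± 0.804 and 8.55 ± 0.675, again within their SD, while in N-Ras+AKT controls Icam1 at 13.9 ± 0.753 lay above Nfkb1 at 7.99 ± 0.855. Nfkb2, Tnfaip3 and Rel followed in DEN+CCl4 controls at 2.84 ± 0.540, 2.20 ± 0.693 and 2.17 ± 0.546. Nfkbie at 1.40 ± 0.162 and Relb at 1.38 ± 0.310 were lowest there. In DEN+CCl4 depletion tumours Icam1 reached 17.5 ± 3.41 and Tnfaip3 9.04 ± 3.97 CPM per kilobase.

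The variation among libraries of a group was uneven across the members. In DEN+CCl4 depletion tumours the coefficient of variation was 43.9% for Tnfaip3, 32.9% for Nfkbia and 29.6% for Vcam1, against 3.6% for Rela and 5.86% for Nfkbie. Depletion library 6 of that group held the highest Tnfaip3, Nfkbia, Icam1, Relb, Nfkb2 and Nfkbie and the lowest Vcam1, Nfkb1 and Rel. The median deviation of the 10 genes from the mean of the model's controls, on the log2 scale, was 0.90 in that library and 0.48 and 0.64 in depletion libraries 9 and 10, and −0.59, −0.56 and −0.92 in N-Ras+AKT depletion libraries 6, 11 and 17. By this median, each of the 6 depletion libraries showed the direction of its group. The genes were chosen with earlier results of these libraries in view, so this is a description and no support.

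Upstream of the subunits, 11 of 42 measured genes of the pathway passed the test after depletion in N-Ras+AKT, or 26.2%, beside 23.7% of all genes. The lists were written with earlier results of these data known. Of 8 measured ligands that activate NF-kB, 2 fell after depletion in N-Ras+AKT, Ltb, which codes for lymphotoxin beta, a ligand of the non-canonical branch (log2 −2.60, adjusted p = 0.00451), and Il33 (−1.28, 0.0198), and 1 rose, Il1a (0.77, 0.0353). Ltb had 10.3 ± 3.53 CPM in N-Ras+AKT controls, 1.70 ± 0.592 after depletion, and 1.56 ± 0.621 and 1.23 ± 0.754 CPM in DEN+CCl4 controls and depletion tumours. Tnf was under 1 CPM on average in all groups. Of 24 receptors and adaptors, 2 rose and 3 fell in N-Ras+AKT, with the receptor gene Tnfrsf12a at −1.37 (adjusted p = 0.0268) and the adaptor gene Tirap at 0.45 (0.00806). Of 10 IkB kinases and their activators, Map3k14, which codes for NIK, fell (−0.89, adjusted p = 0.0117) and the kinase subunit genes Chuk and Ikbkg rose (0.47 and 0.50, adjusted p = 0.0138 and 0.0171). Without depletion 17 the calls of Il1a (0.66, adjusted p = 0.136), Map3k14 (−0.76, 0.0514), Chuk (0.36, 0.0708) and Ikbkg (0.45, 0.0706) ended. The list medians in N-Ras+AKT were −0.24, 0.07 and 0.08, and −0.02 over all genes.

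In DEN+CCl4, given as a description because that comparison chose the 10 genes, the list medians of ligands, receptors and kinases were −0.07, 0.06 and 0.19, and the kinase gene Ikbke had a log2 difference of 0.82 (SE 0.12). The difference of effects passed for 6 of 42 upstream genes, or 14.3%, 1 positive and 5 negative, beside 11.6% of all genes. It was positive for Il1a (1.72, adjusted p = 0.013) and negative for Ltb (−2.25, 0.0442), Ikbke (−0.78, 0.0156) and Map3k14 (−1.08, 0.0361). It was negative too for Birc2 and Traf3, which code for parts of the complex that degrades NIK (−0.69 and −0.72, adjusted p = 0.0195 and 0.0237). With single libraries left out the calls of Il1a, Ikbke and Birc2 held in all cases, that of Ltb ended in 10 of 12 (adjusted p up to 0.0956), that of Traf3 ended in 5 of 12 cases (adjusted p up to 0.0563) and that of Map3k14 in 9 of 12 (up to 0.0844).

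Downstream, the cytokine and effector targets had list medians of 0.71 in DEN+CCl4, −0.92 in N-Ras+AKT and −1.65 for the difference, over 12 measured genes, against −0.01, −0.02 and −0.03 over all genes. Lcn2, the siderophore-binding lipocalin, fell in N-Ras+AKT (log2 −1.58, adjusted p = 0.0355) and Saa3, a serum amyloid A, rose (2.38, 0.00921). The Lcn2 call ended in 4 of 6 cases with a library left out (adjusted p up to 0.0949). The chemokine gene Cx3cl1 fell as well (−1.09, 0.0209), which makes 1 of 12 higher and 2 lower, but that call ended without depletion 17 (−0.83, 0.0764). For the difference of effects, Cxcl1, a chemokine for neutrophils, had −2.42 (SE 0.40, adjusted p = 0.00935) and Lcn2 −3.20 (SE 0.68, adjusted p = 0.0173), both kept with each library left out. Saa3 went the other way (2.96, SE 0.71, adjusted p = 0.0246), and Cx3cl1 had −1.67 (SE 0.42, adjusted p = 0.0268), calls that ended in 5 and 6 of 12 cases with a library left out (adjusted p up to 0.0632 and 0.0691). Among 13 other IkB proteins and negative regulators the smallest adjusted p in N-Ras+AKT was 0.084. The differences of Zc3h12a, an RNase that degrades inflammatory transcripts, and of Nfkbiz, an atypical IkB, passed (−1.21 and −1.54, adjusted p = 0.0207 and 0.0452), the first in all cases but without DEN+CCl4 control 7 (0.054) and the other in only 2 of 12 cases with a library left out. Survival targets had list medians of −0.01 and 0.01 over 11 genes, with Ier3 and Bcl2l1 lower (−2.44 and −1.03, adjusted p = 0.0242 and 0.015) and Sod2 higher (0.85, 0.0106) in N-Ras+AKT.

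Of 10 other adhesion molecules and integrins, 5 rose after depletion in N-Ras+AKT and none fell, beside 12.8% and 10.8% of all genes, among them Itgal and Itgb2, which code for the chains of LFA-1 on leukocytes (log2 1.67 and 1.10, adjusted p = 0.00861 and 0.00641), and Itgb7 (1.52, 0.0218), whose call ended without depletion 17 (1.38, 0.0796). Itgam, whose product pairs with that of Itgb2, and Itgb1 did not pass, at −0.44 and −0.40 (adjusted p = 0.234 and 0.073). The list median was 0.81. Of the 20 pathway genes named by rule in this comparison, the calls of Ltb, Tirap, Saa3, Sod2, Itgal and Itgb2 were kept with each library left out. The other 14 ended without at least 1 library, and each of the 6 libraries ended at least 1 of them.

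Levels of markers of several cell types moved in the same comparisons, with depletion calls in N-Ras+AKT only. Their counts in N-Ras+AKT stand beside 12.8% of all genes called higher and 10.8% called lower. In N-Ras+AKT, 9 of 11 macrophage and Kupffer cell markers rose after depletion (summed level 215 to 400 CPM in controls, 577 to 767 after depletion), as did 4 of 10 T and NK cell markers (2.38 to 3.74 and 5.02 to 8.05) and 5 of 12 endothelial markers (139 to 192 and 183 to 222). Among the endothelial markers, Pecam1, Cdh5, Tie1, Egfl7 and Emcn had lower means after depletion, none of them past the test. In the same libraries 5 of 8 cholangiocyte markers fell (7140 to 10300 in controls, 310 to 3490 after depletion, lowest in depletion 17), and 1 of 12 stellate cell and fibroblast markers rose and 1 fell (625 to 742 and 264 to 648). Nearly all of the cholangiocyte sum was Spp1, with means of 8740 CPM in controls and 1950 CPM after depletion, so that range describes Spp1. Of the stellate cell sum, Rgs5 was the largest part in controls, with means of 277 CPM there and 49.2 CPM after depletion. Dcn, Pdgfra, Des and Lrat had higher means after depletion, with Dcn at 85.5 and 161 CPM. Of the others, 4 of 9 hepatocyte markers (72800 to 76300 and 68300 to 85400) and 3 of 9 B and plasma cell markers (5.3 to 6.26 and 9.95 to 28.4) rose there, and erythroid genes were at 201 to 671 and 159 to 324 CPM. Most of the hepatocyte sum was Alb, with means of 55300 CPM in controls and 47900 CPM after depletion. Alb and Apoa1 had lower means after depletion, neither past the test. Neutrophil markers were at 18.5 to 31.7 and 13.5 to 24.5 CPM with none of 8 called, Ly6g and Camp being at 0 in at least 1 library, as were Cd8b1, Ncr1, Ms4a1, Pax5, Mzb1 and Slc4a1 of the T and NK, B and erythroid lists. In DEN+CCl4 no marker of these lists passed the test after depletion (smallest adjusted p = 0.0537, among endothelial markers). Summed levels there were 444 to 479 CPM in controls and 166 to 322 after depletion for endothelial markers. Neutrophil markers were at 6.42 to 8.36 and 12.5 to 13.6, and stellate cell markers at 534 to 635 and 182 to 468. Macrophage markers were at 342 to 363 and 311 to 401, and hepatocyte markers at 189000 to 245000 and 160000 to 204000. Reln was the largest part of the stellate cell sums in DEN+CCl4, with means of 296 and 155 CPM. Erythroid genes there were at 47.6 to 90 CPM in controls and 3.62 to 19.5 after depletion, cholangiocyte markers at 198 to 494 and 48.2 to 155, B and plasma cell markers at 42.3 to 67.2 and 20.9 to 33.5, and T and NK cell markers at 2.6 to 4.46 and 0.627 to 1.58. Most of the cholangiocyte sum was again Spp1, with means of 303 and 72.2 CPM. The part of these cell types in the values of the 10 genes was not tested.

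The mean profile of the 10 genes, each standardised over the 12 libraries, was followed most closely by Noxo1 (Pearson r 0.95), Spsb3 (0.93), Bmp1 (0.93), Cxcl1 (0.91) and Ahi1 (0.91) among the other genes tested. Among the 10, Nfkb2 lay closest to it (0.96), then Tnfaip3 and Icam1 (0.90 each), and Rela (0.20) and Vcam1 (0.13) least. These values describe 12 libraries that fall into 4 groups and share their group differences, and they carry no test.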

How the data were processed

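RNA was measured in 12 bulk libraries of mouse liver tumours, 3 in each of 4 groups read from the sample titles. Per the labels' protocols, mRNA was selected by its poly-A tail, made into libraries with a KAPA HyperPrep kit and read on a NovaSeq. The authors deposited 1 table of raw counts per gene, in whole numbers and not normalized. The submitters' processing notes list RSEM 1.3.1, STAR 2.7.3, mm10 and Cell Ranger 3.0.2 without a role for any. The counts may thus be rounded estimates in which reads shared between genes are split by a model. For annotation and strand setting the sources used here give nothing. Single-cell samples of the series (6) were not analysed.

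Of 55335 identifiers, 55154 matched GENCODE M21 (GRCm38) without version. Genes were filtered with filterByExpr and scaled by TMM, and 4 group means were fitted by edgeR 4.0.16 under R 4.3.3, with robust quasi-likelihood dispersions and 8 residual degrees of freedom. Standard errors are those implied by the F statistic, and tests were two-sided with Benjamini-Hochberg adjustment over 17013 genes. Alternatives used size factors, DESeq2 1.42.0, limma-voom 3.58.1, other filters and fewer libraries. The code was tested on simulated data. The members, lists and tests were chosen with earlier results of these data known. Pathway genes were named by rule, up to 4 past the test per list and comparison with the largest change. Of 10 hepatocyte markers listed, 1 did not match a symbol. The values of 1 pathway gene are not reported here.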

Additional observations from a re-analysis of the deposited data

Results flagged for a closer look

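For 6 of the 10 genes the difference between the models in the effect of Prom1 depletion lay past the threshold of edgeR's quasi-likelihood test. The difference contains the DEN+CCl4 values that chose the genes, so these values are a description and the test supports nothing about them. On the log2 scale, N-Ras+AKT minus DEN+CCl4, the values were −0.68 for Nfkb1, −1.77 for Nfkb2, −2.80 for Relb, −1.62 for Nfkbie, −2.85 for Tnfaip3 and −1.66 for Icam1, beside 11.6% of all genes past the threshold in either direction. The Nfkb1 call ended in 8 of 12 cases with a library left out (adjusted p up to 0.0876). Those of Nfkb2, Relb, Nfkbie, Tnfaip3 and Icam1 held in all 12. For Nfkb2, Relb, Nfkbie, Tnfaip3 and Icam1 all 3 depletion libraries lay above all 3 controls in DEN+CCl4 and below them in N-Ras+AKT. Model, days after tamoxifen (16 and 6) and any batch cannot be told apart in this difference. Groups of 3 libraries are small, and single outlying libraries were looked for by leaving each library out in turn.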

How the results depend on the processing

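The number of the 10 genes called varied little for the difference of effects (a description, 6, or 5 to 7 over 18 alternatives), for N-Ras+AKT depletion (6, or 4 to 7 over 13) and for the controls (6, or 5 to 8 over 12), and not for DEN+CCl4 depletion. There, 4 genes were called, 0 in a fit of the 6 libraries alone, 2 without both libraries that stand apart and 0 to 4 with 1 library left out (0 without control 7, control 8 or depletion 9, 1 without depletion 6). Of all genes, 63 were called in that comparison, 1066 by DESeq2, 171 without a filter, 13 with the 6 libraries alone, 26 without both libraries that stand apart and 2 to 465 with 1 left out. For N-Ras+AKT depletion 4027 genes were called, 2626 with the 6 libraries alone, 2429 without both and 1768 to 4126 with 1 left out. For the difference 1970 were called, 2984 by DESeq2, 844 without both and 895 to 2326 with 1 left out. Fits without libraries have fewer samples by construction; for the other shifts the cause was not tested. For the controls 6901 were called, 5349 to 6259 with 1 left out. Rela, called in no alternative, changed sign without DEN+CCl4 control 8 (−0.04) or depletion 6 (0.00) in DEN+CCl4 (range −0.04 to 0.11), and without DEN+CCl4 control 13 (−0.03), N-Ras+AKT control 15 (−0.03) or depletion 17 (0.00) in the difference (−0.03 to 0.12). No other gene of the 10 changed sign. No paired analysis was possible because no pair of groups shares more than 1 sample number. With 3 libraries a group and members down to 3 CPM, smaller differences than those called may have been missed.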

Other observations

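Beyond the 10 genes, the 8 pathway genes with the largest differences past the test between the control tumours were all higher in N-Ras+AKT than in DEN+CCl4 (edgeR). They were the chemokine gene Ccl20 (log2 5.06, adjusted p = 0.000442), Ptgs2 (3.58, 0.0103), which codes for a prostaglandin synthase, Ier3 (3.10, 0.00484), Irak3, which dampens Toll-like receptor signalling (3.01, 0.000162), Ccl2 (2.99, 0.000597), Lcn2 (2.96, 0.00105), Tnf (2.93, 0.0067) and Ltb (2.71, 0.000931). Ccl20, Ptgs2 and Tnf lay near the floor, with means of 0.0399, 0.0645 and 0.123 CPM in DEN+CCl4 controls. In N-Ras+AKT controls they had 1.44, 0.767 and 0.899 CPM, so their log2 values rest on few counts. Of all genes, 40.6% passed in this comparison, 20.8% higher and 19.8% lower in N-Ras+AKT. Of the 42 measured pathway genes upstream of the subunits, 10 were higher and 10 lower. Smaller differences in the other direction passed as well, among them those of Itgb7 and Il1a (log2 −1.59 and −1.33). So did those of the kinase genes Ikbkb (−0.79, 0.000159) and Ikbke (−0.88, 0.0002) and the receptor gene Tnfrsf1b (−1.20, 0.000262). These calls were kept with each of the 6 control libraries left out, as were 22 of the 27 pathway genes named by rule in this comparison.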
